A study of Mus musculus with 8 samples.

Results

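Autophagy is the route by which a cell encloses part of its cytoplasm in a membrane and delivers it to the lysosome for breakdown. The 34 genes described here encode its core machinery, 4 receptors or adaptors for selected cargo and 1 transcription factor. They were taken by gene symbol from a table of RNA-seq read counts for 32567 mouse genes, and all 34 were found in it. The rule uses gene names and no measured value.

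RNA was sequenced from mouse embryonic stem cells (ESC), grown on feeder layers or gelatin, and from RA-DIFF cells. RA-DIFF cells were made from ESC without feeders by growing them as embryoid bodies, adding retinoic acid, and then dissociating and plating the bodies shortly before collection. Each stage was taken from a wild-type parental line and from a Hdhex4/5/ex4/5 line. The latter is homozygous for an inactivating mutation of Htt, the mouse orthologue of the Huntington's disease gene, and is called Htt-null here. Each of the 4 conditions is 1 library, and each genotype is a cell line, so that no condition has a spread between replicates of its own. A test was possible only by letting the 2 lines stand in as replicates of a stage, or the 2 stages as replicates of a genotype. Reads counted on genes numbered 87924678 in wild-type ESC, 63617410 in Htt-null ESC, 110569127 in RA-DIFF labelled wild type and 100927951 in RA-DIFF labelled Htt-null. At these depths the 34 genes had between 81 and 21729 reads in a library, and the 95% exact binomial interval of a log2 ratio between 2 libraries reached a median of 0.061 to either side. This interval covers counting error only, since PCR copies and differences between cultures add to it.

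Levels are given as CPM, the reads of a gene counted relative to the TMM-scaled size of its library, or as RPKM, which further divides by the length of the gene's exons in kilobases. Differences are log2 ratios of CPM, with a prior count of 2 added. A gene was called past the limit when its log2 ratio was above 0.75 or below -0.75, among the 15492 genes with an average log2 CPM above 0. All 34 autophagy genes were among these 15492.

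Htt itself had 14385 reads in wild-type ESC, 7260 in Htt-null ESC, 8212 in the RA-DIFF library with the wild-type label and 9722 in the one labelled Htt-null. Htt-null ESC were lower than wild-type ESC, with a log2 ratio of -0.58. The RA-DIFF library with the Htt-null label was higher than the one labelled wild type, with a log2 ratio of 0.43, which goes against its label. The counts take in all exons of Htt and therefore do not measure the mutated exons directly. The gene levels in the study's own table also matched the 2 deposited RA-DIFF columns the other way round, while the ESC columns matched as labelled. RA-DIFF libraries are therefore named by their labels throughout. If the labels were exchanged, the genotype ratios in RA-DIFF would keep their size and take the opposite sign. The comparison between stages does not depend on these labels where all 4 pairs of an RA-DIFF and an ESC library are used.

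The stage labels were checked against marker genes. All 10 pluripotency markers were past the limit and lower in RA-DIFF in all 4 pairs of libraries, and their summed level was 5870 and 4994 CPM in ESC against 57.5 and 13.5 CPM in RA-DIFF. Of 12 neuron markers, 10 were past the limit and higher in RA-DIFF in all 4 pairs. The 2 RA-DIFF libraries differed from each other in these lists: the neuron markers summed to 3033 CPM in the library labelled wild type and 1435 CPM in the one labelled Htt-null, and the fibroblast and mesenchyme markers to 859 and 3184 CPM. In cultures of mixed cells, fewer cells of a type and less RNA per cell cannot be told apart.

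In the textbook order of events, a kinase complex built on Ulk1 or Ulk2 starts the process, and a lipid kinase complex with Becn1 and Pik3c3 marks the membrane on which the autophagosome grows. Lipid is then supplied through Atg9 and Atg2, while ubiquitin-like conjugation enzymes attach proteins of the Atg8 family (Map1lc3 and Gabarap) to the membrane. Receptors such as Sqstm1 bind both the cargo and the Atg8 proteins. Autophagy is active in most cell types, and neurons are known to depend on it for the clearance of aggregated proteins. The huntingtin protein has itself been linked to cargo selection through Sqstm1 and Ulk1.

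Every autophagy gene was detected in every library. Their summed level was 2309 CPM in wild-type ESC, 2294 in Htt-null ESC, 2165 in the RA-DIFF library with the wild-type label and 2033 in the one labelled Htt-null. Per length, Sqstm1 (the receptor also called p62) had the highest level in ESC, at 53.5 RPKM in the wild type and 65.2 in Htt-null. Gabarap, of the Atg8 family, had the highest level in RA-DIFF, at 105 RPKM in the library labelled wild type and 91.1 in the one labelled Htt-null. The lowest level in RA-DIFF was that of Atg9b, at 0.18 and 0.22 RPKM. Atg16l2 was the lowest in ESC, at 0.58 and 0.69 RPKM. In wild-type ESC Atg9b was close, at 0.74 RPKM, and with the longest transcript as length the order of these genes turns there.

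**Figure D1:**
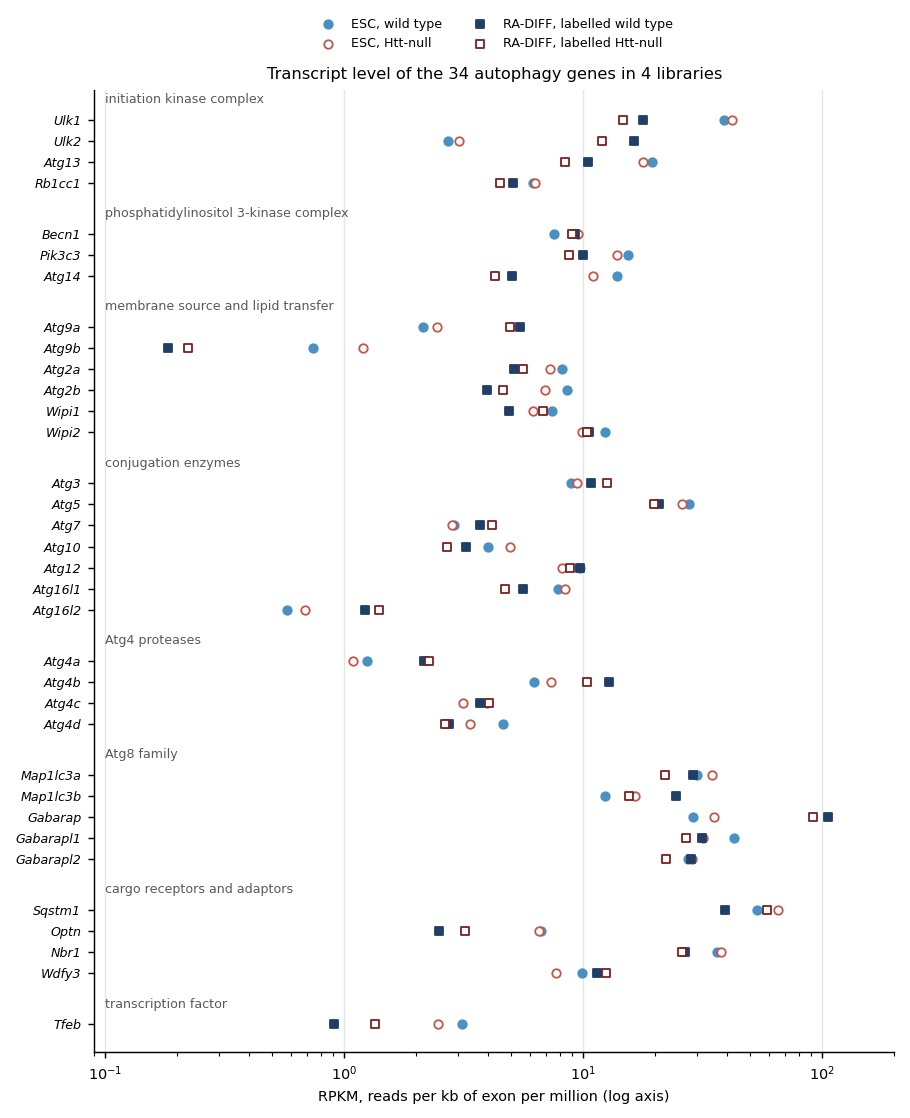
Level of each of the 34 autophagy genes, grouped by role, in the 4 RNA-seq libraries (RPKM on a log axis, 1 point per library). The circles of the ESC libraries and the squares of the RA-DIFF libraries lie apart for Ulk2, Atg9b and Gabarap, and lie together for Atg12 and Wipi2; Atg9b spans 1.2 to 0.18 RPKM and Gabarap 28.8 to 105 RPKM.

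The first comparison asked how the autophagy genes differed between the stages. Between the libraries labelled wild type, 14 of 34 genes were past the limit, 7 higher and 7 lower in RA-DIFF, where 60.1% of all tested genes were past it (33.9% higher, 26.1% lower). Between the Htt-null libraries 13 were past it, 5 higher and 8 lower, against 59.2% of all tested genes (34.3% higher, 24.8% lower). With edgeR's exact test at an assumed dispersion of 0.1, the value in the study's methods, these counts were 7 (41.0% of all tested genes) and 5 (40.0%). With the RA-DIFF labels exchanged they were 14 (5 higher, 9 lower), against 59.7% of all tested genes (34.4% higher, 25.2% lower), and 13 (6 higher, 7 lower), against 59.1% (33.6% higher, 25.5% lower). In all 4 pairs of libraries, 5 genes were higher and 6 lower, which is 11 of 34 against 47.5% of all tested genes. With median-of-ratios size factors in place of TMM, Atg4a was no longer past the limit and the count was 10 (4 higher, 6 lower), against 47.2% of all tested genes. Between the libraries labelled wild type these factors gave 6 higher and 8 lower, with Atg4a lost and Atg4d (lower) gained, against 32.7% and 27.2%. The 5 higher genes were Ulk2, Atg9a, Atg16l2, Atg4a and Gabarap. The 6 lower genes were Ulk1, Atg13, Atg14, Atg9b, Optn and Tfeb. By direction, 27.4% of all tested genes were higher in all 4 pairs and 20.1% lower. Without the fold limit, both RA-DIFF libraries lay on the same side of both ESC libraries for 26 of 34 autophagy genes (9 higher, 17 lower) and for 83.5% of all tested genes. The median log2 ratio of the 34 genes was -0.29 with either pair of genotype labels, against 0.12 (wild type) and 0.17 (Htt-null) for all tested genes. The stages were also tested with edgeR's quasi-likelihood test over the 4 libraries, taking the 2 lines as replicates of a stage, a fit added after the values were seen. The adjusted p-values (Benjamini-Hochberg over 15492 genes) measure the spread between these 2 lines, genotype included. At an adjusted p under 0.05 and past the fold limit, 13 of 34 autophagy genes were called (6 higher, 7 lower), where 52.4% of all tested genes were. They were the 11 genes above with Atg2b (lower) and Atg4b (higher). Among the 11, the adjusted p in edgeR ran from 0.0018 (Ulk2) to 0.048 (Atg4a). With the line as a block the count was 11, without Atg16l2 and Atg4a, against 48.3% of all tested genes. With either pair 13 of the 34 were higher and 21 lower in RA-DIFF by any amount. Of all tested genes, 53.9% were higher and 46.1% lower between the libraries labelled wild type, and 55.5% and 44.5% between the Htt-null libraries.

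**Figure D2:**
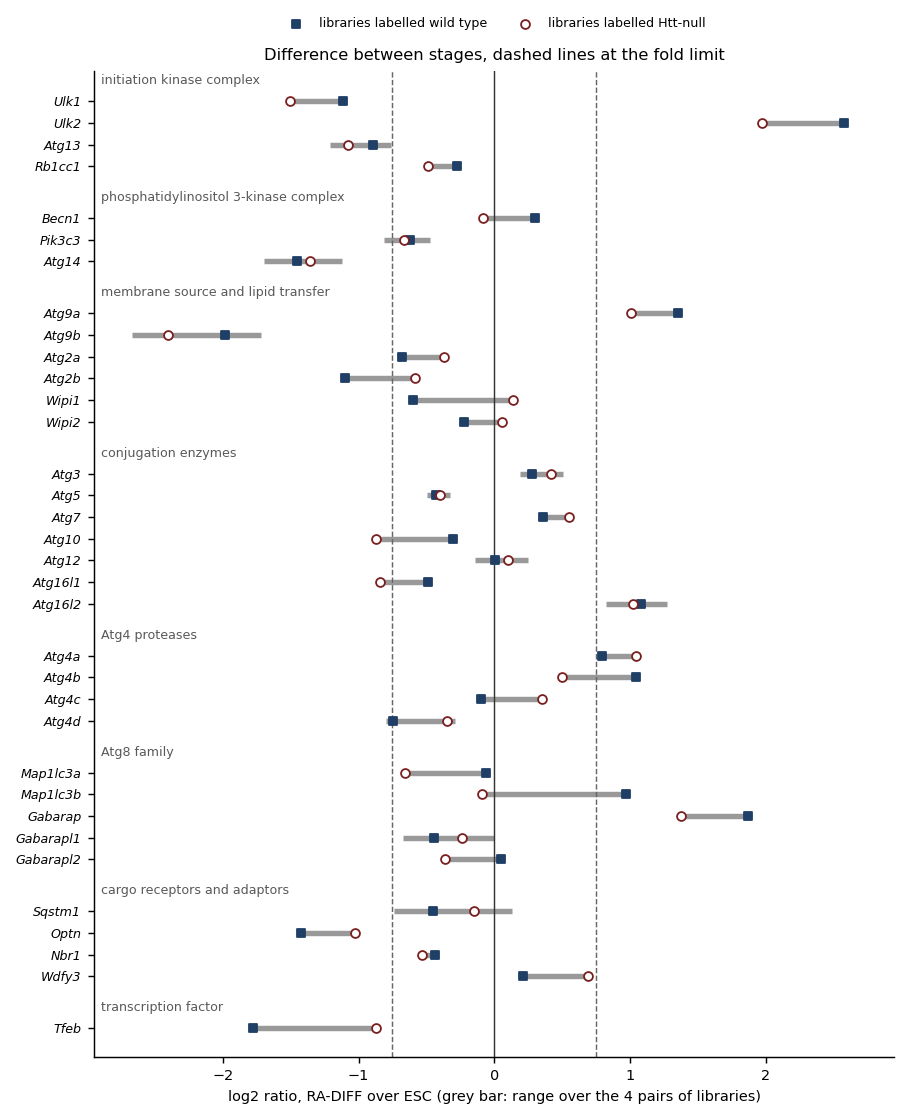
Log2 ratio of RA-DIFF over ESC for each autophagy gene, between libraries labelled wild type (squares) and labelled Htt-null (open circles), with a grey bar for the range over all 4 pairs of libraries and dashed lines at the fold limit of 0.75. Bars that lie wholly outside the dashed lines belong to the 11 genes past the limit in all 4 pairs, from Atg9b (-2.67 to -1.72) to Ulk2 (1.97 to 2.58).

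Among the genes of the initiation complex, the paralogous kinases Ulk1 and Ulk2 differed between the stages in opposite directions. Ulk1 (chr5:110784488-110810097, minus strand) phosphorylates other autophagy proteins and had 251 CPM in wild-type ESC, 271 in Htt-null ESC, 115 in the RA-DIFF library with the wild-type label and 95.4 in the one labelled Htt-null. Both RA-DIFF libraries were below both ESC libraries, with log2 ratios from -1.51 to -1.12. Ulk2 (chr11:61775649-61855073, minus strand) had 16.3 and 18.2 CPM in ESC and 97.4 and 71.2 CPM in RA-DIFF, in the same order. Its log2 ratios ran from 1.97 to 2.58, the largest upward difference of the 34 genes. For each read on Ulk1 there were 0.0651 and 0.0669 reads on Ulk2 in ESC, and 0.844 and 0.747 in RA-DIFF. This ratio within a library does not depend on the scaling between libraries. Adjusted for length, Ulk2 made up 6.60% and 6.77% of the Ulk reads in ESC, and 47.8% and 44.8% in RA-DIFF.

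Because the pair differed in opposite directions, the 250 bases before the RefSeq start of each gene are shown (GRCm38.p6, in the direction of the gene, with each CCGCCC or GGGCGG in capitals, the GC box that Sp1-type factors bind).
Ulk1, chr5:110810082-110810331, minus strand: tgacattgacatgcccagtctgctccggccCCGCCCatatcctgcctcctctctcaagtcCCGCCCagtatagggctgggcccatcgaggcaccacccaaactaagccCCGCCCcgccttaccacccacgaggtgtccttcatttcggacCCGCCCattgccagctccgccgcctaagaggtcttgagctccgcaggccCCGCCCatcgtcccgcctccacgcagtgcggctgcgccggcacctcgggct
Ulk2, chr11:61855093-61855342, minus strand: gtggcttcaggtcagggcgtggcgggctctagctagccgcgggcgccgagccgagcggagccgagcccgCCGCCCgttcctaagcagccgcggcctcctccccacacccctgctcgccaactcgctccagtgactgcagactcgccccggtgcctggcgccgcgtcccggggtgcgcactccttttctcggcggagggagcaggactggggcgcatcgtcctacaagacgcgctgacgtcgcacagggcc
The Ulk1 window held 5 GC boxes and the Ulk2 window 1, counted on both strands. Of all 32851 windows of this kind, 32.7% held at least 1 and 1.43% held as many as Ulk1 or more. Among the autophagy genes the Ulk1 count was not the highest, since the window of Wipi1, whose stages overlapped, held 8. A link between the boxes and the stage ratios was not tested. The Ulk1 window had 20 CpG sites and 67.2% G or C, and the Ulk2 window 31 CpG sites and 72.8%, where the medians over all windows were 6 sites and 52.4%. These matches are a description of the letters and not of bound sites.

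Atg13, the regulatory subunit that ties the Ulk kinases to Rb1cc1, had 84.9 CPM in wild-type ESC, 77.5 in Htt-null ESC, 45.7 in the RA-DIFF library with the wild-type label and 36.6 in the one labelled Htt-null. Its 4 stage ratios ran from -1.21 to -0.76, with the smallest just past the limit. Rb1cc1, the scaffold of the complex, had 90.5 and 92.5 CPM in ESC and 74.8 and 65.8 CPM in RA-DIFF. Rb1cc1 was also lower in RA-DIFF, but within the limit in all 4 pairs (log2 ratios from -0.49 to -0.28). Ulk2 was thus the 1 gene of the 4 in this complex with a higher level in RA-DIFF.

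In the lipid kinase complex, Atg14 stood apart from its partners. Atg14, the subunit that directs the complex to autophagosome formation, had 59.9 and 47.4 CPM in ESC (wild type, then Htt-null) and 21.8 and 18.5 CPM in RA-DIFF. Its 4 log2 ratios ran from -1.70 to -1.12. Pik3c3, the catalytic subunit, had log2 ratios from -0.82 to -0.47 and was lower in RA-DIFF in all pairs, though not past the limit in each. Becn1, the scaffold that binds either Atg14 or Uvrag, overlapped between the stages, with ratios from -0.08 to 0.30. The annotated span of Becn1 shares 10366 bases, introns included, with that of Cntd1 on the opposite strand. Cntd1 had at most 513 reads in a library against at least 4373 for Becn1, and its part in the Becn1 counts was not tested.

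The Atg9 paralogues also differed in opposite directions. Atg9a (chr1:75180860-75192196, minus strand), the membrane protein whose vesicles seed the autophagosome, had 12.3 and 14.1 CPM in ESC and 31.5 and 28.4 CPM in RA-DIFF, the wild type first at each stage. Both RA-DIFF libraries were above both ESC libraries, with log2 ratios from 1.01 to 1.35. Atg9a shares 46 bases with Ankzf1 on the opposite strand, which had 4801 and 3125 reads in ESC and 3087 and 1736 in RA-DIFF, where Atg9a had 1067 and 922 in ESC and 3525 and 2798 in RA-DIFF. The part of Ankzf1 in the Atg9a counts was not tested. Atg9b (chr5:24384181-24392143, minus strand), its paralogue, had 254 and 308 reads in ESC (2.93 and 4.72 CPM) and 81 and 86 reads in RA-DIFF (0.72 and 0.87 CPM). Its log2 ratios, from -2.67 to -1.72, were the largest downward differences of the 34 genes. Atg9a was read 4.20 and 2.99 times as often as Atg9b in ESC, and 43.5 and 32.5 times as often in RA-DIFF. The annotated ends of Atg9b and of Nos3, on the opposite strand, overlap by 294 bases. Nos3 itself had 876 and 646 reads in ESC and 63 and 56 in RA-DIFF, and its part in the Atg9b counts was not tested.

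The other genes for membrane supply showed smaller stage differences. Atg2a and Atg2b encode lipid transfer proteins, and both were lower in RA-DIFF in all pairs, with log2 ratios from -0.68 to -0.37 for Atg2a and from -1.10 to -0.58 for Atg2b. Wipi1 and Wipi2 encode proteins that bind the lipid made by the Pik3c3 complex. Both overlapped between the stages, with ratios from -0.60 to 0.14 for Wipi1 and from -0.25 to 0.08 for Wipi2.

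Of the 7 conjugation genes, Atg16l2 alone was past the limit in all 4 pairs. Atg16l2, a paralogue of the Atg16l1 subunit that places the Atg12-Atg5 conjugate on the membrane, had 4.88 and 5.83 CPM in ESC and 10.3 and 11.8 CPM in RA-DIFF (wild type, then Htt-null). Its log2 ratios ran from 0.83 to 1.28. Atg16l1 was lower in RA-DIFF in all pairs, with ratios from -0.84 to -0.49. By reads per length, Atg16l2 made up 6.84% and 7.58% of the pair in ESC and 17.9% and 23.0% in RA-DIFF. With the longest transcript in place of all exons as the length, its share in wild-type ESC was 3.61%. Atg16l2 lies within reach of a neighbour on the opposite strand: its annotated span shares 21372 bases with Fchsd2, which had 3385 and 2308 reads in ESC and 8333 and 6688 in RA-DIFF, where Atg16l2 had 423 and 380 in ESC and 1159 and 1166 in RA-DIFF. The part of Fchsd2 in the Atg16l2 counts was not tested.

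Atg7 and Atg3, which act like an E1 and an E2 enzyme on the Atg8 proteins, were both higher in RA-DIFF, within the limit (log2 ratios from 0.36 to 0.55 for Atg7 and from 0.19 to 0.51 for Atg3). Atg5 was lower within the limit (-0.50 to -0.33). Atg10, the E2-like enzyme for Atg12, was lower with ratios from -0.87 to -0.30, and Atg12 overlapped between the stages (-0.14 to 0.25).

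Atg3, Atg5 and Atg7 are shown by sequence because they were the 3 genes, of 27 autophagy genes with a promoter in the RefSeq table, whose 250 upstream bases held CACGTG. This is the core of the element that Tfeb and related factors bind. Of all 32851 windows, 6.02% held it. That share is per window, while a gene with several windows was counted if any of them held the core. Each run of 30 bases lies on the plus strand of GRCm38.p6, with the core in capitals.
Atg3, chr16:45158723-45158752: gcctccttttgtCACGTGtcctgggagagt
Atg3, chr16:45158746-45158775: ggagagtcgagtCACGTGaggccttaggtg
Atg5, chr10:44268309-44268338: agggcggagcgcttgcCACGTGgtcttggt
Atg7, chr6:114670952-114670981: catattggtggtCACGTGtgcagtaagtga
The cores lay 94 and 71 bases before the start of Atg3, 14 before that of Atg5 and 132 before that of Atg7. The RefSeq start of Atg7 lies inside the gene as GENCODE annotates it, which begins at position 114643097, so its window is upstream of an internal start. The 3 genes did not differ alike between the stages, since Atg3 and Atg7 were higher in RA-DIFF and Atg5 lower.

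The 4 Atg4 proteases trim Atg8 proteins before conjugation and release them afterwards. Atg4a, on the X chromosome, had 287 and 189 reads in ESC (3.31 and 2.90 CPM) and 646 and 591 reads in RA-DIFF (5.76 and 6.0 CPM), the wild type first. Both RA-DIFF libraries were above both ESC libraries, with log2 ratios from 0.80 to 1.04. With median-of-ratios size factors the lowest of these ratios was 0.746, just within the limit. Atg4b, the main protease of the family, was also higher in all pairs, with ratios from 0.50 to 1.05. It made up 38.8% and 49.1% of the Atg4 reads per length in ESC and 59.9% and 53.7% in RA-DIFF. Atg4d was lower in RA-DIFF (-0.80 to -0.29), and Atg4c overlapped between the stages (-0.10 to 0.35).

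In the Atg8 family, Gabarap (chr11:69991143-69994951, plus strand) was past the limit in all 4 pairs and the other 4 genes were not. Gabarap had 53.0 CPM in wild-type ESC, 64.8 in Htt-null ESC, 194 in the RA-DIFF library with the wild-type label and 168 in the one labelled Htt-null. Its log2 ratios ran from 1.37 to 1.87. Map1lc3b, which encodes the LC3 protein used as the common marker of autophagosomes, had 93.1 and 124 CPM in ESC and 183 and 116 CPM in RA-DIFF. The stages overlapped for Map1lc3b, since the RA-DIFF library with the Htt-null label lay between the 2 ESC libraries. Map1lc3a had 35.4 and 40.8 CPM in ESC and 34 and 25.8 CPM in RA-DIFF, and was lower in all pairs by between 0.06 and 0.66 on the log2 scale. Gabarapl1 had 86.3 and 63.5 CPM in ESC and 63.4 and 54.0 CPM in RA-DIFF. Htt-null ESC and the RA-DIFF library with the wild-type label were therefore nearly at the same level of Gabarapl1. Gabarapl2 had 63.5 and 66 CPM in ESC and 65.9 and 51.4 CPM in RA-DIFF, and overlapped between the stages.

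Per length, the make-up of the Atg8 family followed Gabarap. Gabarap made up 20.4% and 24.1% of the family's reads per length in ESC, and 48.2% and 51.4% in RA-DIFF. Gabarapl1 held the largest share in wild-type ESC, at 30.3%, with 21.6% in Htt-null ESC and 14.4% and 15.1% in RA-DIFF. The share of Map1lc3b lay between 8.72% and 11.3% in the 4 libraries. The summed level of the 5 genes was 331 and 359 CPM in ESC and 540 and 416 CPM in RA-DIFF.

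**Figure D3:**
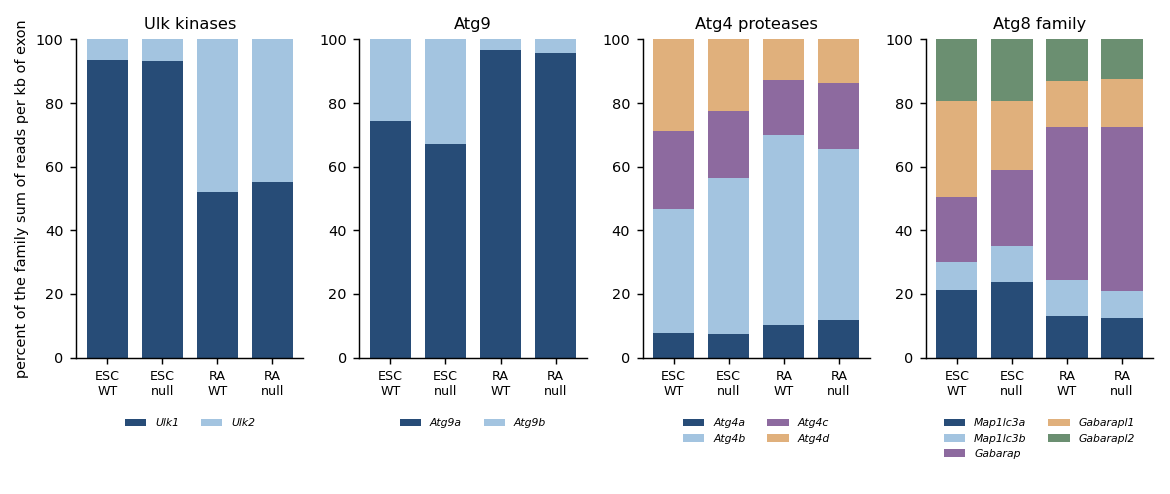
Share of each paralogue in the reads per kilobase of exon of its family, in percent, for the Ulk kinases, Atg9, the Atg4 proteases and the Atg8 family, with 1 stacked bar per library that sums to 100. Ulk2 goes from 6.60% and 6.77% in ESC to 47.8% and 44.8% in RA-DIFF, and Gabarap from 20.4% and 24.1% to 48.2% and 51.4%.

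Among the receptors and adaptors, Optn was lower in RA-DIFF and the abundant receptors differed less. Optn, a ubiquitin-binding receptor known for the removal of mitochondria and bacteria, had 25.1 and 24.5 CPM in ESC and 9.33 and 12.1 CPM in RA-DIFF, the wild type first at each stage. Its 4 log2 ratios ran from -1.42 to -1.02. Sqstm1 had 179 and 219 CPM in ESC and 131 and 197 CPM in RA-DIFF. The stages overlapped for Sqstm1, as the RA-DIFF library with the Htt-null label lay between the ESC libraries. Nbr1, a receptor related to Sqstm1, had 248 and 258 CPM in ESC and 184 and 178 CPM in RA-DIFF, lower in all pairs within the limit (-0.53 to -0.43). Wdfy3, also called Alfy, a large adaptor for aggregated proteins, had 152 and 118 CPM in ESC and 176 and 191 CPM in RA-DIFF. It was the 1 gene of the 4 with both RA-DIFF libraries above both ESC libraries (0.21 to 0.69).

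Tfeb (chr17:47737030-47792419, plus strand) encodes a transcription factor that activates lysosomal and autophagy genes. It had 1536 and 917 reads in ESC (17.7 and 14.1 CPM) and 578 and 755 reads in RA-DIFF (5.16 and 7.67 CPM), labelled wild type first. Both RA-DIFF libraries were below both ESC libraries, with log2 ratios from -1.78 to -0.87.

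The second comparison asked whether the autophagy genes differed between Htt-null and wild-type cells. In ESC, 0 of 34 genes were past the limit, where 8.61% of all tested genes were (5.14% higher, 3.47% lower). In RA-DIFF it was also 0 of 34, where 20.7% of all tested genes were (11.7% higher, 8.99% lower). Among the 9351 genes with an average log2 CPM above 4, a bound chosen after the values were seen, 2.59% were past the limit in ESC and 12.3% in RA-DIFF, and 28 of the 34 autophagy genes belong to these. The share in ESC is so low that a count of 0 says little about the autophagy genes in particular. In edgeR's quasi-likelihood test of genotype with the stages as replicates and as a block, added after the values were seen, 0 of 34 autophagy genes and 0 of 15492 genes were called. At an unadjusted p under 0.05 it was 0 of 34, against 2.36% of all tested genes. With the RA-DIFF labels exchanged it was again 0 called of each, and 1 of 34 (Map1lc3b) at an unadjusted p under 0.05, against 5.18%. That fit looks for a difference shared by both stages, and with no gene called among all tested its 0 says nothing about the autophagy genes in particular. The 34 genes had a median log2 ratio between the genotypes (positive where Htt-null was higher) of -0.00042 in ESC and -0.062 in RA-DIFF, and all tested genes of -0.04 and -0.01. In ESC 17 genes were lower and 17 higher, where 54.7% of all tested genes were lower and 44.8% higher. In RA-DIFF 21 were lower and 13 higher, where 51.1% of all tested genes were lower.

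**Figure D4:**
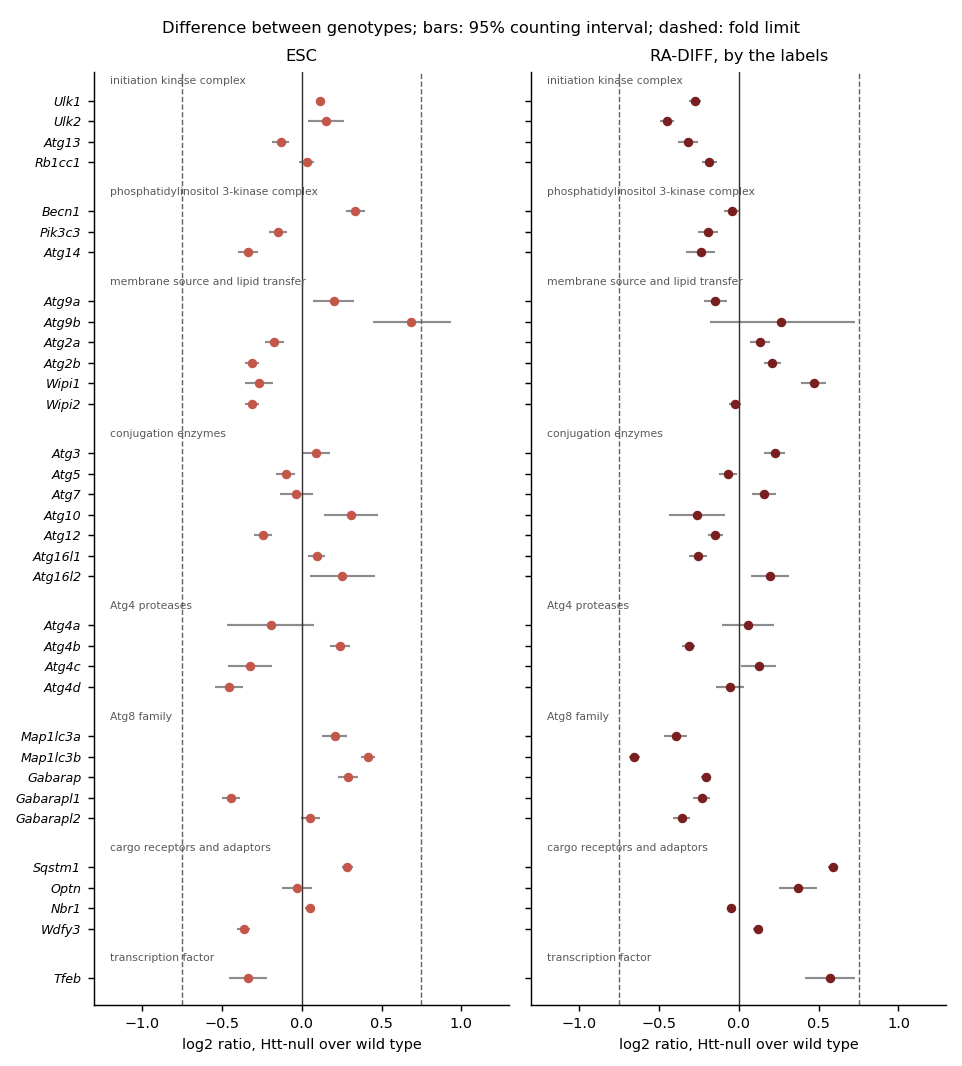
Htt-null to wild-type log2 ratio for each autophagy gene in ESC (left) and, by the labels, in RA-DIFF (right), with bars for the 95% exact binomial interval of counting error and dashed lines at the fold limit of 0.75. No point lies outside the dashed lines; the extremes are Atg9b (0.68) and Atg4d (-0.45) in ESC, and Map1lc3b (-0.65) and Sqstm1 (0.59) in RA-DIFF.

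The differences were small but mostly larger than counting error. The counting interval left out 0 for 29 of 34 genes in ESC and for 29 in RA-DIFF, where it did so for 68.3% and 78.8% of all tested genes, which says nothing about the spread between cultures. In ESC the largest difference was that of Atg9b, at 0.68 with an interval from 0.44 to 0.93, and its upper bound is past the limit. Atg4d (-0.45) and Gabarapl1 (-0.44) were the largest downward differences, and Map1lc3b (0.42) and Becn1 (0.34) followed Atg9b upward. Atg4d shares 4316 bases with Kri1 on the opposite strand, which had 1988 and 1442 reads in ESC where Atg4d had 2908 and 1596, and the part of Kri1 in this ratio was not tested. Atg4b likewise shares 3365 bases with Thap4, with 2672 and 1977 reads in ESC against 4468 and 3964 for Atg4b. In RA-DIFF the largest differences were those of Map1lc3b (-0.65, interval from -0.69 to -0.62) and Sqstm1 (0.59, interval from 0.56 to 0.62). Map1lc3b shares 58 bases with Zcchc14 on the opposite strand, which had 23281 and 16853 reads in RA-DIFF where Map1lc3b had 20499 and 11452 (wild-type label first), and 5008 and 5147 in ESC where Map1lc3b had 8070 and 8094. In GENCODE vM21 a further gene on the same strand, Gm20388, spans all 8400 bases of Map1lc3b, and its reads were not analysed here. The part of either neighbour in the Map1lc3b ratios was not tested. Tfeb (0.57), Wipi1 (0.47) and Ulk2 (-0.45) came next.

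By role, none of the groups held a gene past the limit, and the directions below depend on the RA-DIFF labels. All 4 genes of the initiation complex had a lower level in the RA-DIFF library with the Htt-null label, with a median of -0.30, while in ESC 3 of the 4 were higher in Htt-null with a median of 0.07. All 5 Atg8 genes had negative ratios in RA-DIFF, with a median of -0.36, and in ESC 4 of the 5 were higher with a median of 0.21. Within RA-DIFF the Atg8 ratios were -0.65 for Map1lc3b, -0.40 for Map1lc3a, -0.36 for Gabarapl2, -0.23 for Gabarapl1 and -0.21 for Gabarap. The scalings tried could not turn the sign of these 9 genes in RA-DIFF, so their unchanged signs say nothing about the groups. Scaling shifted the median of all tested genes there by -0.055 (library size alone) and 0.012 (median-of-ratios factors). The ratio closest to 0 among the 9 was -0.185, that of Rb1cc1. The 3 genes of the lipid kinase complex were also lower in RA-DIFF, with Becn1 close to equal (-0.04).

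The 4 receptors and adaptors were split in RA-DIFF. Sqstm1 (0.59), Optn (0.37) and Wdfy3 (0.12) were higher in the library with the Htt-null label, and Nbr1 was at -0.05. Sqstm1 was also higher in Htt-null ESC (0.29), and was the receptor with the largest ratio of the 4 at the later stage. With the RA-DIFF labels exchanged, Sqstm1 would have opposite signs at the 2 stages and the lowest RA-DIFF ratio of the 4. A neighbour on the opposite strand, Mrnip, shares 750 bases with Sqstm1 but had at most 897 reads in a library, against at least 14268 for Sqstm1. The membrane genes were higher in 4 of 6 cases in RA-DIFF (median 0.17), led by Wipi1 (0.47). The conjugation genes were split 3 higher and 4 lower, from -0.26 to 0.22, and the Atg4 proteases 2 and 2, from -0.31 to 0.12.

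Some markers of cell types differed more between the RA-DIFF libraries than any autophagy gene. In the library with the Htt-null label 11 of 12 neuron markers were lower, with a median of -1.25, and 15 of 15 tested fibroblast and mesenchyme markers were higher, with a median of 1.78. Of 10 pluripotency markers, 9 were lower, with a median of -2.84. The 8 neural progenitor markers were split 4 and 4, with a median of 0.06, and the 6 tested endoderm markers had a median of 0.77. None of these markers was at 0 in an RA-DIFF library, while Lum was at 0 in wild-type ESC and Dcn in Htt-null ESC. The part of this difference in cell markers in the autophagy ratios of RA-DIFF was not tested. The study reported the other direction, with most changed neuron-specific genes higher in Htt-null RA-DIFF cells. Its changed genes of extracellular matrix organization were there more often lower than higher. The study used other gene lists, and the reason for the unlike directions was not tested. In ESC the lists used here had medians of 0.21 for neuron markers, -0.60 for fibroblast and mesenchyme markers, -0.15 for pluripotency markers, -0.05 for neural progenitor markers and -0.34 for endoderm markers. The fibroblast and mesenchyme markers summed to 1379 CPM in wild-type ESC and 1239 CPM in Htt-null ESC, of which Fn1 alone made up 1290 and 1173 CPM. Without Fn1 the sums were 88.8 and 66.4 CPM in ESC, and 767 and 2813 CPM in RA-DIFF.

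Genes around the core machinery were counted in the same way, with the same background shares. Of 9 further genes of the core machinery none was past the limit between the genotypes at either stage, and neither was any of 12 genes of mTORC1 and AMPK signalling, the nutrient sensors that act on the Ulk complex. Of 10 further receptors, 0 were past the limit in ESC and 2 in RA-DIFF, both lower in the library with the Htt-null label, which is near the 20.7% of all tested genes. Bnip3, a receptor on mitochondria that is induced by low oxygen, had 135 and 95.7 CPM in ESC and 71 and 15.9 CPM in RA-DIFF, the wild type first at each stage. Its log2 ratio was -0.50 in ESC and -2.16 in RA-DIFF. Bnip3l, its paralogue, also called Nix, had 92.6 and 73.0 CPM in ESC and 169 and 90.8 CPM in RA-DIFF. The ratio of Bnip3l was -0.34 in ESC and -0.90 in RA-DIFF, so that both genes of this pair were lower in the library with the Htt-null label at both stages. With the RA-DIFF labels exchanged, both genes would have opposite signs at the 2 stages.

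Of 12 genes for fusion with the lysosome, 2 were past the limit in RA-DIFF and 0 in ESC, against 20.7% and 8.61% of all tested genes. These shares apply to the other counts past the limit in this paragraph as well, and none is read as a result about its list. Stx17, the SNARE on the closed autophagosome, had 13.4 and 11.6 CPM in ESC and 29.7 and 51.5 CPM in RA-DIFF, with genotype ratios of -0.21 and 0.79. Vamp8, its partner on the lysosome, had 4.19 and 6.32 CPM in ESC and 5.68 and 10.3 CPM in RA-DIFF, with ratios of 0.59 and 0.86. Both SNAREs were thus highest in the RA-DIFF library with the Htt-null label. Of 20 lysosomal genes, 1 was past the limit in RA-DIFF, Hexa, a subunit of the enzyme that breaks down gangliosides, with 44.1 and 46.2 CPM in ESC and 29 and 52.1 CPM in RA-DIFF and ratios of 0.07 and 0.85. Without the limit, 15 of the 20 lysosomal genes had a higher level in the RA-DIFF library with the Htt-null label, with a median of 0.31, where 48.9% of all tested genes were higher. In ESC 8 of the 20 were higher in Htt-null, with a median of -0.07. Other lists were also uneven without the limit in Htt-null ESC, where 54.7% of all tested genes were lower. Lower there were 11 of 12 genes of mTORC1 and AMPK signalling, 8 of 10 further receptors and 7 of 9 further core genes. The last list holds Tfeb's relatives, the Foxo factors and Zkscan3, a zinc-finger factor, and of its 5 tested genes Foxo1, a factor under insulin control, was past the limit in RA-DIFF, with 84.0 and 68.6 CPM in ESC and 17.9 and 31.6 CPM in RA-DIFF and ratios of -0.29 and 0.82. The CACGTG core was present upstream of 8 of the 14 lysosomal genes with a RefSeq promoter, against 3 of 27 for the autophagy genes and 6.02% of all windows. The first 2 are counts of genes with the core in any window, and the last is a share of single windows.

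**Figure D5:**
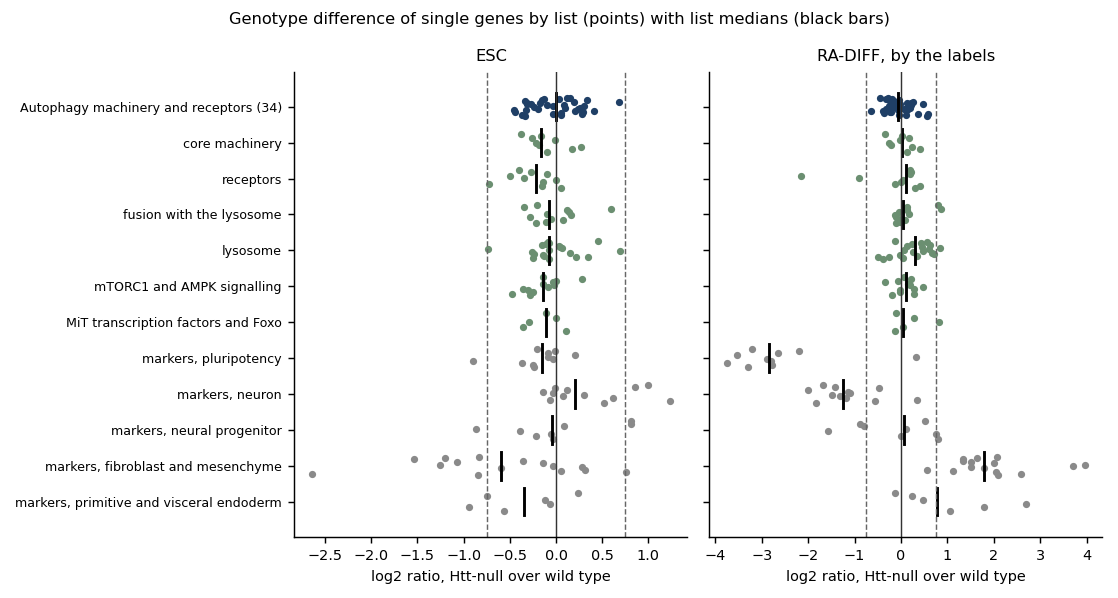
Htt-null to wild-type log2 ratio for the 34 autophagy genes, 6 further lists of the pathway and 5 lists of cell type markers, in ESC (left) and by the labels in RA-DIFF (right), with 1 point per gene, a black bar at each list's median and dashed lines at 0.75. The autophagy genes lie within the dashed lines at both stages, the lysosomal genes have a median of 0.31 in RA-DIFF, and the neuron and mesenchyme markers lie on opposite sides with medians of -1.25 and 1.78.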

How the data were processed

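The authors aligned 50 bp paired-end reads from a strand-specific dUTP library of poly-A RNA to GRCm38.p4 with TopHat2 2.0.14, using GENCODE M6, counted them per gene with HTSeq 0.6.1 in the intersection-nonempty mode, and deposited raw read counts. The strand option was not named, and the paper says that programs ran with default settings where nothing else was specified. Reads of genes that overlap on opposite strands may therefore not be fully separated. Bases shared by neighbouring genes are those of the annotated spans, introns included, and not of the counted exons. All 4 columns of counts were assigned to a sample by name, and the 4 small RNA libraries were not used here.

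Counts were scaled by TMM factors (0.986, 1.03, 1.01 and 0.976 for wild-type ESC, Htt-null ESC and the RA-DIFF libraries labelled wild type and Htt-null) with edgeR 4.0.16 in R 4.3.3. Log2 CPM used a prior count of 2. Each condition is 1 library, and ratios within a stage or a line carry no test. Chosen after seeing the data, edgeR's quasi-likelihood test was run for stage with the 2 lines as replicates, without and with the line as a block, and for genotype with the 2 stages as replicates and as a block. The limits of 0.75 on the log2 ratio and 0 on the average log2 CPM are those of the study's methods. The study's methods give an edgeR dispersion of 0.1 without naming the edgeR test. An exact test at this assumed dispersion was computed as an alternative. A count of 0 allows up to 3 reads, or 0.0271 to 0.0472 CPM. The 95% intervals are exact binomial ones for counting error. Exon lengths and positions came from GENCODE vM21 (GRCm38), and upstream sequences from RefSeq (GRCm38.p6), which held 27 of the 34 genes by symbol. The steps were tested on simulated counts. Tables, intervals and figures were made with Python 3.11.15, pandas 2.3.3, numpy 2.4.6, scipy 1.17.1 and matplotlib 3.10.9.

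All 34 genes are reported. Those past the limit in all 4 stage pairs, the Atg8 family, the receptors and Tfeb are given in full. Genes of other lists are named where they were past the limit between genotypes. Zkscan3 and Plekhm1 are named for their stage ratios, and Fn1, Lum and Dcn for their levels. The genes and lists were chosen with earlier results of these data known. Alternatives were library size alone, median-of-ratios size factors, another prior count, no filter on low counts, a fold limit of 1, assumed dispersions of 0.01 and 0.1, exchanged RA-DIFF labels and the longest transcript as length.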

Additional observations from a re-analysis of the deposited data

Results flagged for a closer look

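For 16 of the 34 autophagy genes the genotype ratio had opposite signs at the 2 stages, with counting intervals that left out 0 at each stage. The same held for 30.4% of all tested genes. These shares are not matched for level, and intervals are narrower for genes with more reads. An average log2 CPM above 4 was reached by 28 of the 34 genes, against 9351 of all 15492 tested genes. The share among genes of like level was not computed. The difference between the stages was not tested, since each condition is 1 library. The Htt-null to wild-type log2 ratio is given for ESC and RA-DIFF, followed by the second minus the first.

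Higher in Htt-null ESC and lower in the RA-DIFF library with the Htt-null label were 10 genes. They were Map1lc3b (0.42 and -0.65, -1.07), Ulk2 (0.15 and -0.45, -0.60), Map1lc3a (0.21 and -0.40, -0.60), Atg10 (0.31 and -0.26, -0.57), Atg4b (0.24 and -0.31, -0.55), Gabarap (0.29 and -0.21, -0.50), Ulk1 (0.12 and -0.27, -0.39), Atg16l1 (0.09 and -0.26, -0.35), Atg9a (0.20 and -0.15, -0.35) and Nbr1 (0.05 and -0.05, -0.10). The LC3 gene Map1lc3b had the largest difference of these, and the kinases Ulk1 and Ulk2 were both among them.

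Lower in Htt-null ESC and higher in the RA-DIFF library with the Htt-null label were 6 genes. They were Atg2a (-0.17 and 0.13, 0.30), Atg4c (-0.32 and 0.12, 0.45), Wdfy3 (-0.36 and 0.12, 0.48), Atg2b (-0.31 and 0.21, 0.52), Wipi1 (-0.27 and 0.47, 0.74) and Tfeb (-0.33 and 0.57, 0.90). Tfeb had the largest difference of these. With the RA-DIFF labels exchanged, each of the 16 genes would have the same sign at both stages. Genes with the same sign at both stages by the labels, such as Sqstm1, would then have opposite signs. The fibroblast and mesenchyme markers, which also differed in sign between the stages (medians of -0.60 and 1.78), and the neuron markers (medians of 0.21 and -1.25) moved with this pattern, and their part in it was not tested.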

How the results depend on the processing

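The labels carry no replicate number, and no library was left out, since each condition is 1 library. Pairing by line, the edgeR stage fit added after the values were seen called 13 autophagy genes with no replicate block, 11 with the line as replicate block and 11 with that block and the RA-DIFF labels exchanged, against 52.4%, 48.3% and 51.5% of all tested genes. Pairing by stage, the edgeR genotype fit called 0 of 34 autophagy genes and 0 of 15492 genes with the stage as replicate block, both with the labels as given and exchanged. At an unadjusted p under 0.05 these were 0 and 1 of the 34. The count of 0 of 34 genes past the limit between genotypes was also 0 with library size alone, median-of-ratios factors and a smaller prior count. The other alternatives say nothing about it. A higher fold limit, the assumed dispersions and the exchanged labels could only remove calls or turn signs. The filter on low counts had been passed by all 34 genes. With the RA-DIFF labels exchanged, the RA-DIFF genotype median went from -0.062 to 0.062 and the stage median in the wild type from -0.29 to -0.38. With the exact test at an assumed dispersion of 0.1, the stage counts went from 14 to 7 in the wild type and from 13 to 5 in Htt-null. At this dispersion 1.63%, 8.66%, 41.0% and 40.0% of all tested genes were called between genotypes in ESC and RA-DIFF and between stages in wild type and Htt-null. With library size alone the stage median in Htt-null went from -0.29 to -0.36. A fold limit of 1 left 7 genes (3 higher, 4 lower) of the 11 past the limit in all 4 stage pairs, against 39.1% of all tested genes (22.8% higher, 16.3% lower). With the longest transcript as length, shares in wild-type ESC went to 5.58% from 6.60% (Ulk2), 60.7% from 51.1% (Atg2b), 20.5% from 25.8% (Atg9b), 52.2% from 38.8% (Atg4b), 3.61% from 6.84% (Atg16l2), 71.9% from 62.4% (Wipi2) and 22% from 20.4% (Gabarap), which follows from the other lengths. No scaling moved the median of all tested genes by more than 0.072 on the log2 scale. Of the 136 single ratios, 51 moved by more than counting error with library size alone, 14 with median-of-ratios factors and 0 with a smaller prior count. Ratios near 0 changed sign with scaling, those of Atg7 and Optn between genotypes in ESC, and those of Wipi2 and Atg12 between stages. The counting interval reached at most 0.46 to either side of a ratio, and the spread between cultures was not measured.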

Other observations

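Between the stages, the lists around the core machinery differed in their counts. Of the 5 tested genes of the list with MiT and Foxo factors and Zkscan3, 3 were lower and 1 higher in RA-DIFF past the limit in all 4 pairs of libraries, where 20.1% and 27.4% of all tested genes were. The higher gene was Zkscan3, a zinc-finger factor, with log2 ratios from 1.69 to 1.94, named after its values were seen. Foxo1, one of the lower genes, had log2 ratios from -2.23 to -1.12. Of 12 genes of mTORC1 and AMPK signalling, 1 was lower and 0 higher in all 4 pairs past the limit, and the stages did not overlap for 12 of the 12, where they did not for 83.5% of all tested genes. The 9 further genes of the core machinery had 0 past the limit in all 4 pairs. Of the 20 lysosomal genes, 2 were higher and 1 lower, and their summed level was 2312 and 2274 CPM in ESC and 2832 and 3279 CPM in RA-DIFF. Of 12 genes for fusion with the lysosome, 1 was higher in all 4 pairs, Stx17, with ratios from 1.15 to 2.15, and 1 lower, Plekhm1, with ratios from -1.26 to -1.06, named after its values were seen. Bnip3 and Bnip3l differed between the stages in unlike ways: Bnip3 had ratios from -3.09 to -0.43, and Bnip3l from -0.03 to 1.21.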
